A study of Mus musculus with 6 samples.

Results

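The genes described here are 36 genes of the piRNA pathway and of germ granules, taken from a fixed list of symbols and matched to Ensembl identifiers in the counts of mouse testis RNA. All 36 symbols had a match among the 55536 genes of the count tables, and all 36 passed edgeR's filter on low counts, as did 21465 genes in all. Testes of 3 KOStra8 and 3 HETStra8 mice aged 7 weeks were sequenced, with 1 library per mouse. KOStra8 mice carry 1 floxed and 1 deleted allele of Sel1L together with Stra8-Cre, a recombinase driven by a promoter of premeiotic male germ cells. In the series record, HETStra8 mice are heterozygous littermates with the genotype flox/Δ and no Cre is named for them, whereas the paper also places flox/+ mice with Stra8-Cre in this group. The genotype of each HETStra8 mouse is not given in the sources used here. According to the paper, the Cre was only partly active in spermatogonia, and the SEL1L protein was retained in spermatogonia and Sertoli cells, so a whole KOStra8 testis also holds cells with the gene.

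Piwi-interacting RNAs (piRNAs) are small RNAs of the germline that guide PIWI proteins to transposon transcripts and to other RNAs. Their long precursors are cut at the surface of mitochondria and in granules without a membrane (the intermitochondrial cement of spermatocytes and the chromatoid body of round spermatids), then trimmed and methylated at the 3′ end. Tudor domain proteins build these granules by binding methylated arginines of the PIWI proteins. Loss of most of the factors stops mouse spermatogenesis in meiosis or in round spermatids. SEL1L is the partner of the ubiquitin ligase HRD1 in degradation of misfolded proteins from the endoplasmic reticulum, and the comparison asks how the testis transcriptome differs without it in germ cells.

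Library totals lay between 28875108 and 36526695 counts. Sel1l, the targeted gene, was at 49.3, 47.6 and 42.4 CPM (counts divided by the TMM-normalized library size) in HETStra8 mice 1, 2 and 3 and at 24.2, 22.0 and 20.3 CPM in KOStra8 mice 1, 2 and 3, a log2 fold change of −1.07 (standard error 0.104, adjusted p = 0.00061, edgeR's quasi-likelihood test). It was −1.06 when KOStra8 mouse 2 was left out and −1.01 when KOStra8 mouse 3 was, and in neither case was its adjusted p below 0.01. HETStra8 mouse 3 lay nearer to the KOStra8 mice than the other HETStra8 mice did for many genes of low GC content. Among all 5980 tested genes with a GC content below 45%, the median log2 CPM, relative to the HETStra8 mean, was −0.08, −0.01 and 0.11 in HETStra8 mice 1, 2 and 3 and 0.18, 0.15 and 0.22 in KOStra8 mice 1, 2 and 3. For this reason the log2 fold change of each member is also given corrected for GC content and the length of transcripts, and the main counts are given without HETStra8 mouse 3. That mouse was singled out by its values, so leaving it out favours larger differences and smaller p values for such genes. The runs without it are therefore no separate support for a difference. The correction takes no account of genotype, so it also removes any difference between the groups that follows GC content or length. Such a difference and an effect of the libraries cannot be told apart here.

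The promoters of members were examined for sequence motifs, since many piRNA pathway genes are transcribed together at the pachytene stage. A RefSeq promoter (GRCm38.p6, from 250 bases before to 50 bases after the transcription start) was given for 28 of the 36 members. The promoters of the members with the smallest p in each direction are shown because they open the comparison of members with opposite signs. Rnf17 and Stk31 were those with a positive log2 fold change and Gpat2 and Adad2 those with a negative one. Rnf17 had no entry. The sequences run 5′ to 3′ on the plus strand, and capitals mark CACGTG and the MYB-type motif on either strand. They lie at chr6:49395354-49395653 for Stk31, chr2:127424949-127425248 for Gpat2 and chr8:119612463-119612762 for Adad2.
Stk31: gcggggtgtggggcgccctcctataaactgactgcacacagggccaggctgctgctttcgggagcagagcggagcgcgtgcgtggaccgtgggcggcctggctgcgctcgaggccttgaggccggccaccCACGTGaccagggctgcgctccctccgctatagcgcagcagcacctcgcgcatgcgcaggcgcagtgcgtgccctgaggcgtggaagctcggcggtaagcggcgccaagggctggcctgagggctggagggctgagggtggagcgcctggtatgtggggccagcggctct
Gpat2: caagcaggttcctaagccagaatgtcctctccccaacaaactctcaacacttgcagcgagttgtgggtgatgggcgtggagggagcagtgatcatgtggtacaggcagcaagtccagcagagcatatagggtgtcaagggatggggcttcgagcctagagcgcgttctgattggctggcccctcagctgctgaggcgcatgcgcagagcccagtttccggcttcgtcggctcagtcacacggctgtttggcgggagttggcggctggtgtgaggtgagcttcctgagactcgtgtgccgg
Adad2: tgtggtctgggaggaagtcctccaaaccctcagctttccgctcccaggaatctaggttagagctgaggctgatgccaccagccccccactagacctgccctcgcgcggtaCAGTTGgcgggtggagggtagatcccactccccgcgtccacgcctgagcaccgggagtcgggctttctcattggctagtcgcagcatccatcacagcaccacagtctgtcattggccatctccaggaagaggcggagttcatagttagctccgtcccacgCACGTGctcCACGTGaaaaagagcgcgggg

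CACGTG, an E-box that many basic helix-loop-helix factors can bind and that reads the same on both strands, was found in the promoters of 12 of the 28 members (42.9%), compared with 8.09% of 27025 genes in the RefSeq table and 8.91% of its 17492 protein-coding genes. A gene can have more than 1 promoter. Counted by promoter, it was found in 15 of 39 promoters of members (38.5%), compared with 7.15% of all 32851 promoters. The promoters of members also had more GC, with a median of 61.0% compared with 52.7% for all promoters and 56.3% for those of protein-coding genes, and its part in the difference was not tested. The 16 sites began between 246 bases before and 29 bases after the start, with a median of −49.5 bases. The 12 genes were Piwil1, Pld6, Mov10l1, Fkbp6, Tdrd1, Tdrd9, Stk31, Ddx4, Mael, Dnmt3l, Wdr77 and Adad2. The MYB-type motif was searched as CAACNG or TAACNG on both strands, a match that cannot coincide with CACGTG, and was found in 14 of 28 members, compared with 53.1% of all genes. The windows of 36 bases around an E-box are shown for 4 abundant members that were chosen after the motif had been found. They are chr5:128736052-128736087 (plus strand) for Piwil1, chr13:112652319-112652354 (minus strand) for Ddx4, chr1:166238947-166238982 (minus strand) for Mael and chr19:56826183-56826218 (plus strand) for Tdrd1, with CACGTG in capitals. Piwil1 has another site, at −154 bases from the start, whose window is not shown.
Piwil1: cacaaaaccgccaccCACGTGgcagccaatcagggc
Ddx4: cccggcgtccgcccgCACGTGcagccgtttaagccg
Mael: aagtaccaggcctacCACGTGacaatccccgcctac
Tdrd1: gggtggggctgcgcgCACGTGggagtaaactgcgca

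The members differed widely in level. In CPM per kb of the longest transcript, a scale that allows for annotated length, Mael, which encodes a granule protein needed to silence transposons, had the highest level at 580 ± 6.13 (SD, n = 3) in HETStra8 and 576 ± 3.33 (SD, n = 3) in KOStra8 testes. Gtsf1l and Gtsf1, which encode small zinc finger cofactors of PIWI proteins, followed at 297 ± 13.9 and 247 ± 13.0 CPM per kb (SD, n = 3 HETStra8 mice). Ddx4, the germ cell RNA helicase VASA, had 172 ± 27.6 CPM per kb, Tdrd6 161 ± 18.6, Piwil1 132 ± 12.6 and Tdrd7 99.4 ± 6.46. The lowest levels were those of Morc1, at 1.38 ± 0.225 CPM per kb, and Piwil4, at 0.0796 ± 0.0264. Both are known from fetal prospermatogonia, where new DNA methylation of transposons is set, and these adult testes held few of their transcripts. Across the order of levels, 19 of the 35 pairs of neighbours overlapped in their HETStra8 values, among them Ddx4 with Tdrd6 and Tdrd6 with Piwil1, so their order is not beyond the spread between mice. The transcript forms present in testis were not determined and these levels are not corrected for GC content, so comparisons between genes are approximate.

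**Figure D1:**
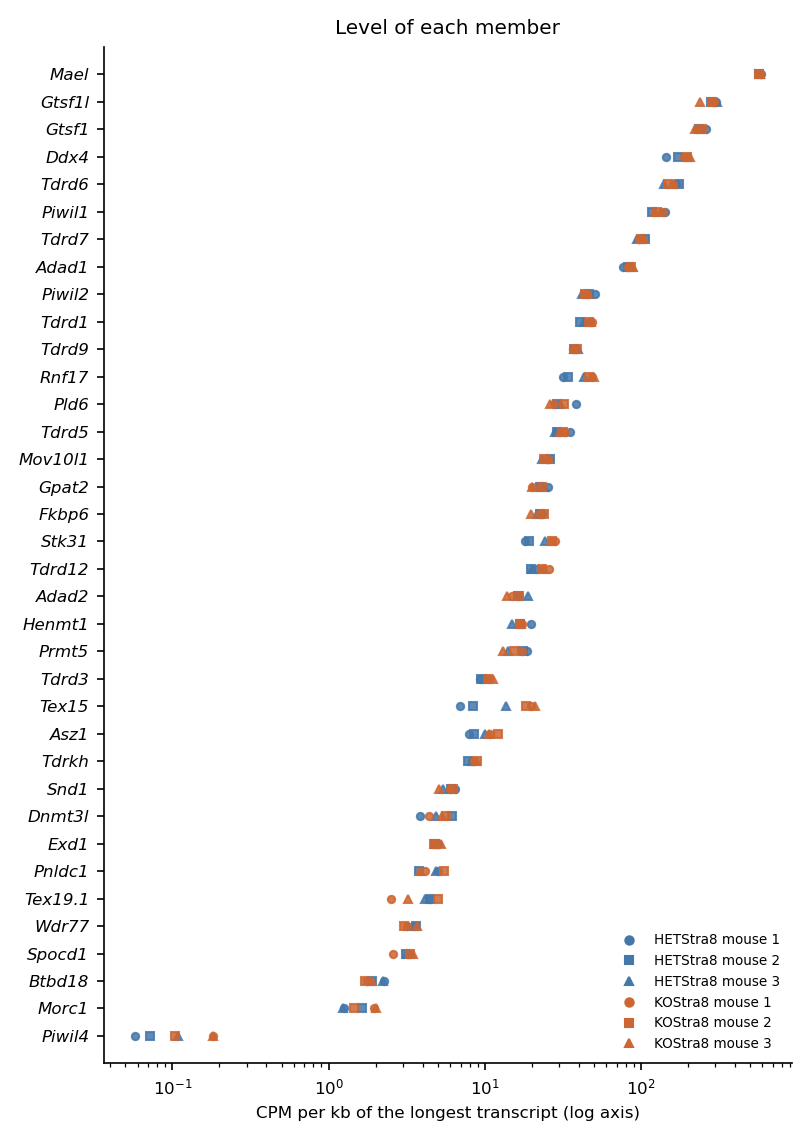
Level of each of the 36 members in CPM per kb of the longest transcript, on a log axis, with members ordered by their HETStra8 mean and 1 point for each of the 6 mice. Mael is highest at 580 and Piwil4 lowest at 0.0796 CPM per kb in HETStra8, and KOStra8 points lie among or near the HETStra8 points for most members.

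Of the 36 members, 0 were higher and 0 were lower in KOStra8 over 2-fold with an adjusted p below 0.01, the study's cutoffs, in edgeR's quasi-likelihood test, as were 0.00466% of all genes in each direction. That share is 1 gene in each direction. At the same cutoffs the paper reports many more genes in each direction, and it does not name its test. With so few genes past the cutoffs in this fit, the count of 0 members is no comparison with the paper's calls. The smallest adjusted p among the members was 0.162. At an adjusted p below 0.05 the counts were also 0 in both directions (0.0186% of all genes higher and 0.00466% lower), while DESeq2's Wald test put 3 members, Rnf17, Stk31 and Tex15, below 0.05 and higher (2.50% of the genes it adjusted) and limma-voom 0. At an unadjusted p below 0.05, 5 members (13.9%) were higher and 0 were lower, compared with 7.13% and 5.12% of all genes. The 5 were Rnf17, Stk31, Tdrd12, Asz1 and Tex15. The median log2 fold change of the members was −0.01, as was that of all tested genes, with 16 members above 0 and 20 below. The difference lay within 0.3 on the log2 scale for 30 members, and the 95% confidence interval lay within 0.5 on either side of 0 for 28, so for these 28 a change of that size was outside the interval.

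In 7 members (19.4%) every KOStra8 mouse had a higher CPM than every HETStra8 mouse, and in 0 members the reverse held, compared with 9.33% and 8.43% of all genes. Besides the 5 above these were Tdrd3, at 49.6, 50.3 and 54.8 CPM in HETStra8 and 56.5, 55.7 and 59.3 in KOStra8, and Tdrkh. All 7 have a GC content below 45%, as do 11 members in all, and 10 of these 11 had a log2 fold change above 0 (median 0.25). The other 25 members, with a GC content of 45% or more, had a median of −0.04, with 6 above 0. Across the 36 members the Spearman correlation of log2 fold change with GC content was −0.72, and across 21457 genes it was −0.46; genes of 1 set of libraries are not independent replicates. Among all tested genes with a GC content below 45%, 19.4% were higher at an unadjusted p below 0.05 and 22.0% did not overlap in that direction, compared with 5 (45.5%) and 7 (63.6%) of these 11 members.

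With offsets that remove the trend with GC content and transcript length in each library, the members' median log2 fold change was 0.02 and 13 members changed sign. At an unadjusted p below 0.05, 4 were higher (Rnf17, Stk31, Tdrd12 and Tex15; 11.1%) and 0 lower, compared with 4.07% and 3.52% of all genes. After the correction 3 members (Rnf17, Stk31 and Tex15) lay higher without overlap and 4 (Tdrd3, Mael, Gtsf1 and Adad1) lower, compared with 6.83% and 6.46% of all genes. The correlation with GC content was then −0.14 over the members. Without HETStra8 mouse 3 and uncorrected, 7 members were higher and 1, Prmt5, was lower at an unadjusted p below 0.05 (11.0% and 8.81% of all genes), and 5 were higher at an adjusted p below 0.05 (3.93% of all genes), namely Rnf17, Stk31, Tex15, Asz1 and Ddx4 (edgeR's quasi-likelihood test).

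**Figure D2:**
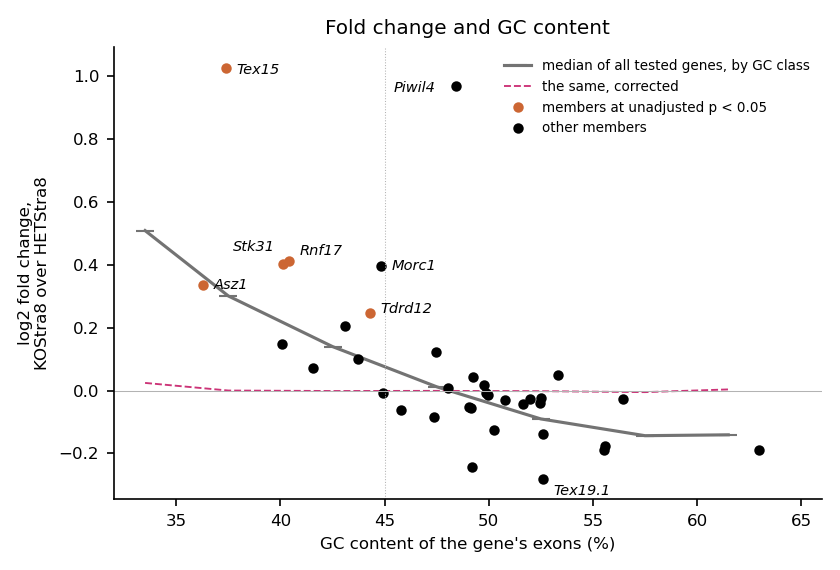
Log2 fold change of KOStra8 over HETStra8 against the GC content of the exons for the 36 members (points), with the median of all tested genes in each GC class before (grey line) and after (dashed line) the correction. The 5 members at an unadjusted p below 0.05 all lie left of the dotted line at 45% GC, where the median of all genes is also above 0.

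Piwil1 and Piwil2 did not differ beyond the spread between mice, and Piwil4 was too scarce to tell. Piwil1 (MIWI), the PIWI protein of pachytene spermatocytes and round spermatids, was at 575, 475 and 538 CPM in HETStra8 mice 1, 2 and 3 and at 560, 508 and 496 CPM in KOStra8 mice 1, 2 and 3. These ranges overlap, and the log2 fold change was −0.02 with a 95% confidence interval of −0.19 to 0.15, or 0.08 (−0.07 to 0.23) after the correction. Piwil2 (MILI), which acts from fetal germ cells to spermatids, was at 250, 230 and 207 CPM in HETStra8 and at 221, 215 and 226 CPM in KOStra8, with overlapping ranges and a log2 fold change of −0.05 (95% confidence interval −0.22 to 0.11), or −0.02 (−0.17 to 0.12) corrected. Piwil4 (MIWI2), the nuclear PIWI protein of fetal prospermatogonia, rested on 6, 8 and 12 counts in HETStra8 and 21, 10 and 22 counts in KOStra8. Its levels were 0.191, 0.238 and 0.360 CPM and 0.601, 0.345 and 0.603 CPM, and the groups overlapped through KOStra8 mouse 2. Its log2 fold change of 0.97 had a 95% confidence interval of −0.22 to 2.16 (adjusted p = 0.498, edgeR's quasi-likelihood test), and was 1.00 (−0.19 to 2.18) corrected, so that at this depth neither a rise nor the lack of one could be shown.

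Among the 8 genes for processing of piRNAs, 2 had a log2 fold change above 0 and 1, Asz1, was at an unadjusted p below 0.05 (12.5%, compared with 7.13% of all genes higher), and 0 after the correction in edgeR's quasi-likelihood test (4.07% of all genes higher). Asz1 (GASZ, chromosome 6, 18050964 to 18109061), a scaffold on the outer mitochondrial membrane, was at 18.7, 19.9 and 23.7 CPM in HETStra8 and at 25.5, 28.4 and 24.9 CPM in KOStra8. All KOStra8 mice lay above all HETStra8 mice, with a log2 fold change of 0.34 (standard error 0.116, adjusted p = 0.285, edgeR's quasi-likelihood test). Asz1 has the lowest GC content of all members, 36.3%, and after the correction its log2 fold change was −0.03 (95% confidence interval −0.24 to 0.18). The other enzymes and cofactors lay between −0.19 and 0.01. They were Pld6, the mitochondrial nuclease that cuts precursors (−0.18), Mov10l1, the helicase that binds them (−0.01), Gpat2, a mitochondrial partner of MILI (−0.19), Exd1, a partner of TDRD12 (0.01), Fkbp6, a cochaperone (−0.04), Pnldc1, the 3′ trimmer (−0.03), and Henmt1, the 3′ end methyltransferase (−0.01). After the correction these 7 lay between −0.05 and 0.06.

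Of the 11 genes for Tudor domain proteins, 8 had a log2 fold change above 0, 5 lay higher without overlap (45.5%, compared with 9.33% of all genes and 22.0% of those with a GC content below 45%) and 3 were higher at an unadjusted p below 0.05 (27.3%, compared with 7.13% and 19.4%). All 5 without overlap have a GC content below 45%, while others of the 11, such as Tdrd1 (47.4%), do not. The share at low GC content is therefore not a like comparison for the 11 together. The median of the 11 was 0.10. After the correction 2 lay higher and 1 lower without overlap, and 3 were higher at that p (6.83%, 6.46% and 4.07% of all genes). Rnf17 (chromosome 14, 56402581 to 56525032), a component of its own germ granule that limits piRNA amplification, was at 168, 180 and 228 CPM in HETStra8 and at 258, 245 and 263 CPM in KOStra8. HETStra8 mouse 3 lay between the other HETStra8 mice and the KOStra8 mice, which were all higher. The log2 fold change was 0.41 (standard error 0.101, adjusted p = 0.162, edgeR's quasi-likelihood test) and 0.19 (95% confidence interval 0.05 to 0.33) after the correction. Stk31 (chromosome 6, 49395604 to 49469501), which joins a Tudor domain to a kinase-like domain, likewise had HETStra8 mouse 3 between the other HETStra8 mice and the KOStra8 mice, with 58.9, 62.5 and 78.6 CPM in HETStra8 and 91.4, 87.4 and 85.8 CPM in KOStra8. Its log2 fold change was 0.40 (standard error 0.102, adjusted p = 0.163, edgeR's quasi-likelihood test) and 0.19 (0.03 to 0.35) after the correction. Without HETStra8 mouse 3, the adjusted p was 0.00019 for Rnf17 and 0.00081 for Stk31 (edgeR's quasi-likelihood test), at log2 fold changes of 0.57 and 0.55. In that run 1.91% of all genes were higher at an adjusted p below 0.01. The mouse left out had the HETStra8 values nearest to KOStra8 for both genes, which favours a small p.

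Tdrd12 (chromosome 7, 35469098 to 35537745), a helicase-like protein needed for secondary piRNAs, was at 79.3, 72.7 and 73.3 CPM in HETStra8 and at 94.7, 84.8 and 87.8 CPM in KOStra8. Here HETStra8 mouse 3 lay with the other HETStra8 mice, and the log2 fold change was 0.25 (standard error 0.0813, adjusted p = 0.262, edgeR's quasi-likelihood test) and 0.17 (0.0009 to 0.33) after the correction. Tdrd1, the MILI-binding scaffold of the intermitochondrial cement, had a log2 fold change of 0.12 (95% confidence interval −0.03 to 0.28), or 0.11 corrected. The chromatoid body proteins Tdrd6 and Tdrd7 had −0.04 and 0.02, or 0.01 and 0.08 corrected, and Tdrd9, a helicase of the MIWI2 granule, had −0.03 uncorrected and 0.03 corrected. Tdrd3 had 0.15 uncorrected and −0.09 corrected, and Tdrkh, the mitochondrial partner of the trimmer, 0.10 and −0.02. Tdrd5 had 0.04 and 0.09, and Snd1, a ubiquitous nuclease with a Tudor domain, −0.05 and −0.01. Tdrkh overlaps Oaz3 on the opposite strand, with a mean of 43181 HETStra8 counts, and Tdrd5 overlaps the antisense gene 4930518J20Rik, with 2048. The strand setting of the counting is not given, so the values of both genes are uncertain.

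**Figure D3:**
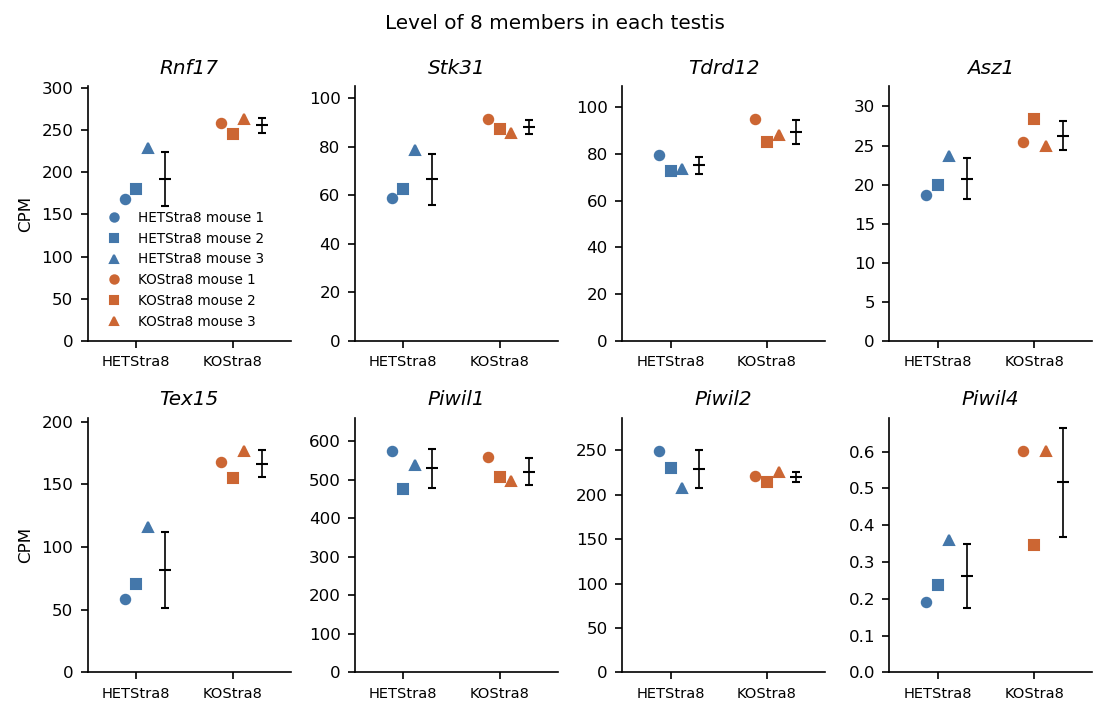
CPM in each mouse for the 5 members at an unadjusted p below 0.05 and the 3 PIWI genes, with axes starting at 0 and the mean ± SD of 3 mice in black. Rnf17, Stk31, Asz1 and Tex15 show HETStra8 mouse 3 (triangle) nearest to the KOStra8 mice, and the groups overlap for Piwil1, Piwil2 and Piwil4.

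Of the granule helicase and PIWI cofactors, 0 of 4 were at an unadjusted p below 0.05 in either direction in edgeR's quasi-likelihood test. Ddx4 was at 434, 517 and 600 CPM in HETStra8 and at 572, 591 and 624 CPM in KOStra8, which overlap, with a log2 fold change of 0.21 (95% confidence interval −0.01 to 0.42) and 0.10 (−0.06 to 0.25) after the correction. Without HETStra8 mouse 3, which had the highest HETStra8 value, it was 0.34 (adjusted p = 0.0187, edgeR's quasi-likelihood test). In that run 3.93% of all genes were higher at an adjusted p below 0.05. Mael had the narrowest uncorrected interval of all members, at −0.01 (−0.13 to 0.12), and −0.09 (−0.20 to 0.02) corrected. Gtsf1 had −0.08 (−0.24 to 0.08) and its paralog Gtsf1l −0.13 (−0.31 to 0.05), or −0.11 and −0.08 corrected. Gtsf1l shares 3.62% of its 50-base sequences with another gene.

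Among the 6 genes for nuclear silencing and transcription, Tex15 had the largest uncorrected difference of all members; corrected, that of the scarce Piwil4 was larger. TEX15 (chromosome 8, 33516738 to 33585582) is needed for piRNA-directed DNA methylation of transposons in fetal germ cells and for repair of meiotic breaks in spermatocytes. Its level was 58.4, 70.5 and 116 CPM in HETStra8 and 167, 155 and 177 CPM in KOStra8. All KOStra8 mice lay above HETStra8 mouse 3, which in turn lay well above the other HETStra8 mice. The log2 fold change was 1.03 (standard error 0.277, adjusted p = 0.292, edgeR's quasi-likelihood test) with 6 mice, and between 0.84 and 1.38 when each mouse was left out in turn, at an unadjusted p below 0.05 in 6 of 6 comparisons. Without HETStra8 mouse 3 the adjusted p was 9.2e-07 (edgeR's quasi-likelihood test) and Tex15 was then the 1 member past the study's cutoffs, compared with 0.190% of all genes higher. After the correction it was 0.67 (standard error 0.151, 95% confidence interval 0.32 to 1.03, adjusted p = 0.342, edgeR's quasi-likelihood test). It then stayed between 0.55 and 0.88 when each mouse was left out, again at an unadjusted p below 0.05 in 6 of 6 comparisons. The paper also lists Tex15 among the genes for which it gives qPCR primers. It reports qPCR, in testes of younger and older mice, of genes that its RNA sequencing called changed, but its text names no result for Tex15.

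The 5 other nuclear genes had wide intervals at low levels. Morc1, a nuclear ATPase of transposon silencing, had a log2 fold change of 0.40 (95% confidence interval −0.01 to 0.80) and 0.33 corrected, Dnmt3l, the cofactor of DNA methyltransferases, 0.05 (−0.34 to 0.44) and 0.15 corrected, and Spocd1, a partner of MIWI2, −0.03 (−0.35 to 0.30) and 0.12 corrected. Tex19.1, which represses transposons in germ cells, had the lowest uncorrected log2 fold change of all members, −0.28 (−0.76 to 0.20), and shares 2.67% of its 50-base sequences with Tex19.2. Btbd18, needed for elongation of pachytene piRNA precursors, had −0.24 (−0.61 to 0.12). Corrected, both were at −0.19. Prmt5, which methylates the arginines of PIWI proteins, had −0.14 (−0.40 to 0.13) and its cofactor Wdr77 −0.06 (−0.33 to 0.21), or −0.03 and −0.10 corrected. Wdr77 shares 27.1% of its 50-base sequences with other annotated genes and overlaps Atp5f1 on the opposite strand, so its counts are uncertain. The adenosine deaminase domain proteins Adad1 and Adad2, the latter found in granules with RNF17, had 0.07 (−0.09 to 0.23) and −0.19 (−0.41 to 0.03), or −0.09 and −0.04 corrected.

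**Figure D4:**
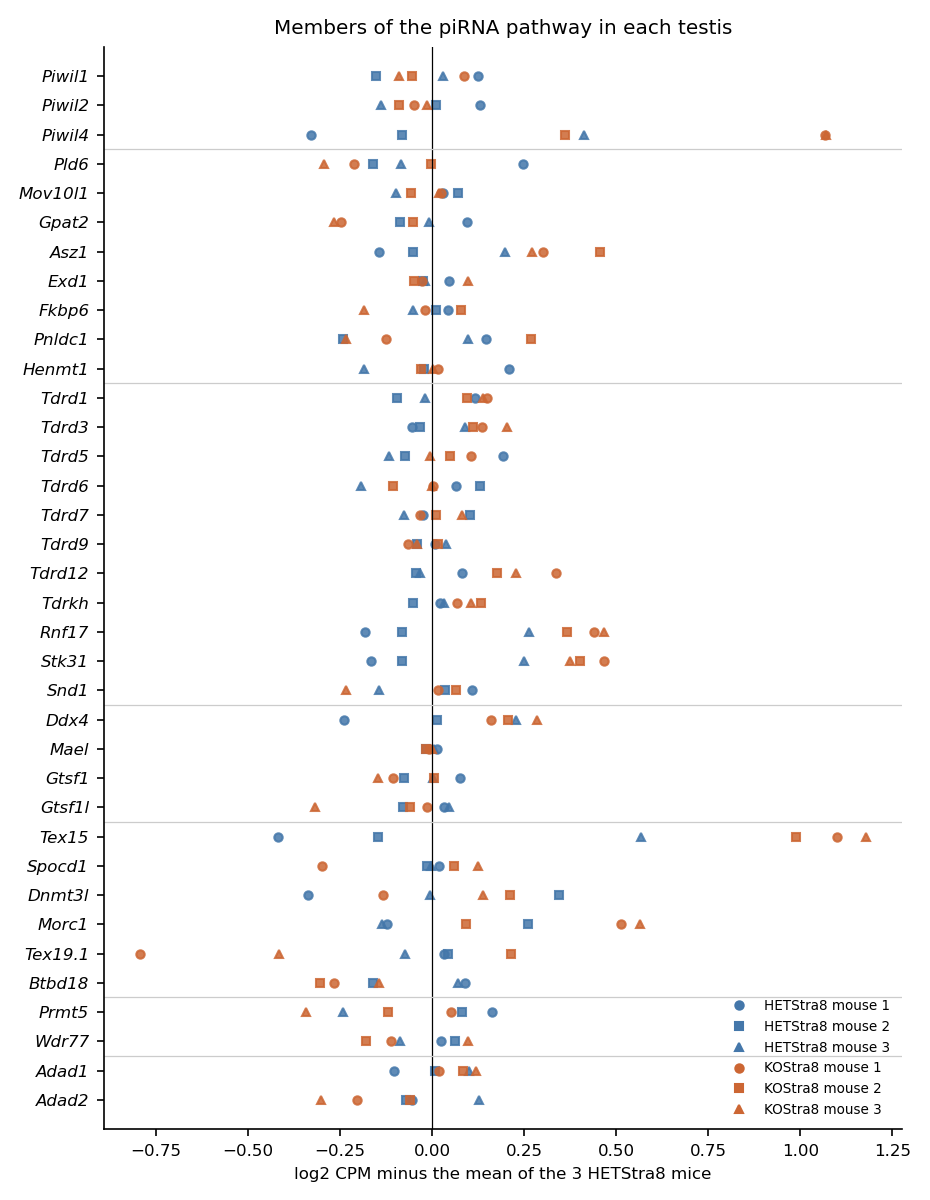
Log2 CPM of each member in each of the 6 mice, relative to the mean of the 3 HETStra8 mice, with grey lines between roles in the order PIWI, processing, Tudor, cofactors, nuclear silencing, arginine methylation and deaminase domain. Tex15, Rnf17, Stk31 and Asz1 have KOStra8 points right of all HETStra8 points, with HETStra8 mouse 3 (blue triangle) closest to them.

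**Figure D5:**
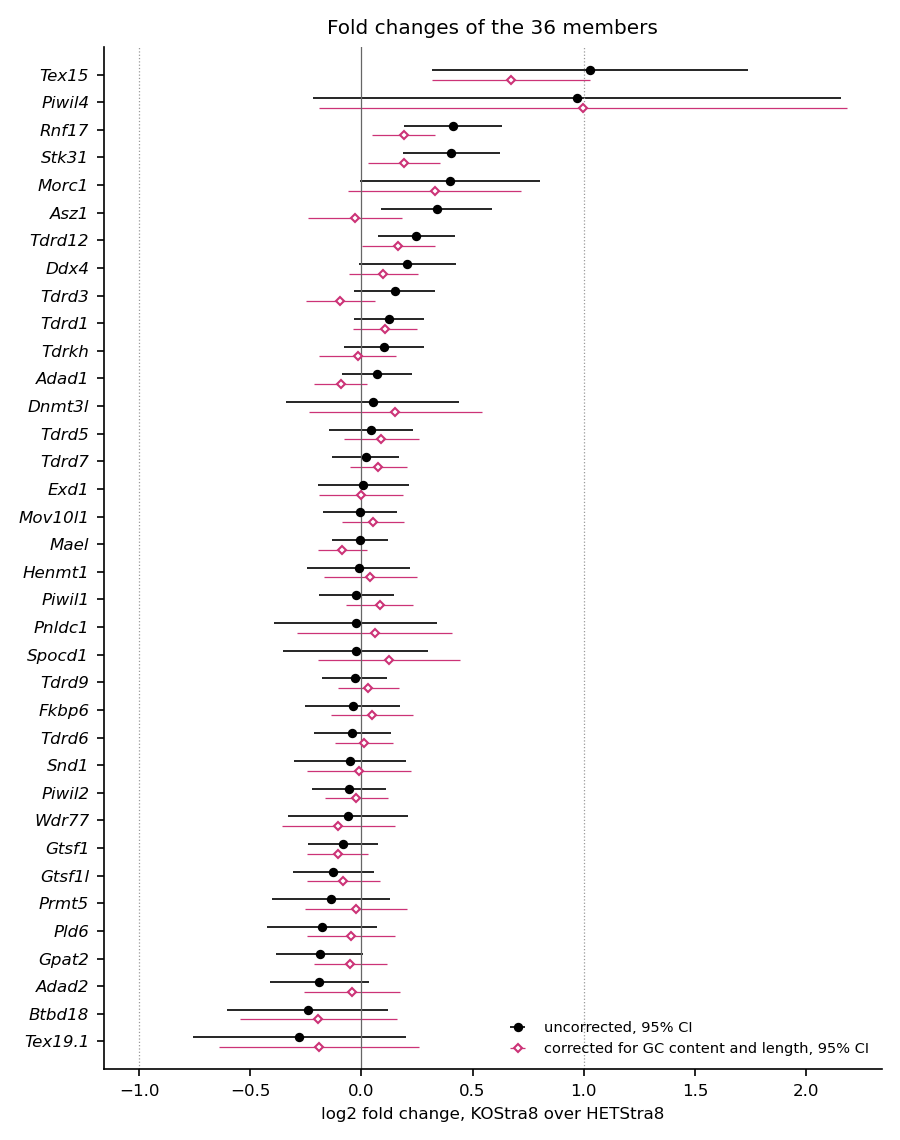
Log2 fold change of each member with its 95% confidence interval, uncorrected (black) and corrected for GC content and transcript length (open diamonds), with dotted lines at a fold of 2. Tex15 moves from 1.03 to 0.67 and Asz1 from 0.34 to −0.03 with the correction, and 28 uncorrected intervals lie within 0.5 on either side of 0.

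Another 34 genes of piRNA and granule biology that are not members were listed, of which 33 were tested and Nanos2 was not. At an unadjusted p below 0.05, 4 were higher (12.1%) and 3 lower (9.09%), compared with 7.13% and 5.12% of all genes. After the correction 3 were higher and 2 lower (4.07% and 3.52% of all genes), of which Hsp90aa1 and Kif17 were also among the uncorrected ones, while Ranbp9 and Upf1 (higher) and Ddx6 (lower) were not. The median log2 fold change was −0.05. Mybl1, which encodes A-MYB, the activator of pachytene piRNA precursors and of several pathway genes, was at 65.2, 63.1 and 79.4 CPM in HETStra8 and at 90.0, 92.1 and 102 CPM in KOStra8. Its log2 fold change of 0.45 (standard error 0.0972, adjusted p = 0.112, edgeR's quasi-likelihood test) was 0.10 (95% confidence interval −0.06 to 0.25) after the correction. Hsp90aa1, an HSP90 chaperone of the class that works with FKBP6, was at 1407, 1600 and 1849 CPM in HETStra8 and at 2066, 2081 and 2113 CPM in KOStra8, a log2 fold change of 0.37 (standard error 0.0840, adjusted p = 0.135, edgeR's quasi-likelihood test) that was 0.28 (0.14 to 0.41) corrected. Topaz1, a germ cell granule protein needed in meiosis, had 0.43 and, corrected, 0.22 (−0.02 to 0.46). The fourth gene, Ago3, had 0.32 and 0.04.

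At that p, 3 of the listed genes were lower. Kif17, a kinesin associated with chromatoid body movement, was at 579, 573 and 559 CPM in HETStra8 and at 473, 481 and 455 CPM in KOStra8, with no overlap and a log2 fold change of −0.28 (standard error 0.0629, adjusted p = 0.126, edgeR's quasi-likelihood test). It was −0.12 (95% confidence interval −0.23 to −0.005) after the correction. Ybx2, the germ cell RNA-binding protein MSY2, had −0.15 and Ehmt2, a histone H3 lysine 9 methyltransferase, −0.17, and both were within 0.01 of 0 after the correction. Of these genes Mybl1, Hsp90aa1, Topaz1 and Ago3 have a GC content below 45%, and Kif17, Ybx2 and Ehmt2 one of 60% or more. Tcfl5, a basic helix-loop-helix factor of spermatocytes, had −0.06 (−0.20 to 0.09) and 0.09 corrected.

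The members are expressed in different germ cells, and in whole testis a smaller number of cells and less RNA per cell cannot be told apart. The 8 markers of leptotene and zygotene spermatocytes summed to 283 to 454 CPM in HETStra8 and to 464 to 520 CPM in KOStra8, with a median log2 fold change of 0.44 that was 0.06 after the correction, and 2 of 8 (Rad51ap2 and Meioc) were higher at an unadjusted p below 0.05 (7.13% of all genes were higher and 5.12% lower). Markers of pachytene and diplotene spermatocytes summed to 4147 to 4355 and 3883 to 4182 CPM, and those of round spermatids to 1080 to 1163 and 1043 to 1153 CPM, with medians of 0.0018 and −0.03 and 1 pachytene marker, Nme8, higher. The 8 spermatogonial markers summed to 98.9 to 108 and 94.4 to 104 CPM, and 0 of 8 were at an unadjusted p below 0.05 in either direction in edgeR's quasi-likelihood test. Those of elongating spermatids summed to 15446 to 15541 and 13897 to 15602 CPM, with 1 of 8, Gapdhs, lower. Of the somatic cells, markers of Sertoli cells summed to 954 to 1145 CPM in HETStra8 and 796 to 916 CPM in KOStra8, with 3 of 8 (Clu, Rhox5 and Gata4) lower, and those of Leydig cells to 525 to 799 and 437 to 568 CPM, with 1 of 6 (Star) lower. Peritubular myoid markers summed to 105 to 146 and 106 to 122 CPM and macrophage markers to 52.1 to 61.8 and 49.0 to 68.1 CPM, each with 1 of 5 lower (Des and Cd68). After the correction the markers at that p were Meioc, Gm960 and Tnp2, higher, and Pgk2, Clu, Rhox5 and Star, lower (4.07% and 3.52% of all genes), and the medians were −0.11 for Sertoli, −0.27 for Leydig, −0.15 for myoid and −0.05 for macrophage markers, from −0.22, −0.32, −0.21 and −0.11 uncorrected. Uncorrected, 8 of 8 Sertoli, 6 of 6 Leydig, 5 of 5 myoid, 4 of 5 macrophage and 7 of 8 elongating spermatid markers had a log2 fold change below 0. Of the leptotene and zygotene markers, 7 of 8 were above 0. After the correction 6 Sertoli, 6 Leydig, 3 myoid, 4 macrophage and 4 elongating spermatid markers were below 0, and 5 leptotene and zygotene markers above. None of the markers was at 0 counts in any mouse. The part of cell composition in the values of the members was not tested.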

How the data were processed

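Poly(A)+ RNA of testis was sequenced from 3 KOStra8 and 3 HETStra8 mice, which are separate animals. The authors deposited raw counts of reads per Ensembl gene for each mouse. Per the labels' processing notes, STAR 2.7.1a, featureCounts 1.6.0, HTSeq and StringTie 2.0.4 were among the tools and mm10 and GRCm38 among the builds; their roles and the strand setting are not given in the sources used here. Symbols, GC content and transcript lengths came from GENCODE M21 (GRCm38) and promoters from RefSeq (GRCm38.p6).

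Counts were compared in edgeR 4.0.16 (filterByExpr, TMM, robust quasi-likelihood F test, two-sided, genotype only) with Benjamini-Hochberg adjustment over 21465 genes. The common biological coefficient of variation was 0.160. With 3 mice in each group, the smallest exact permutation p is 0.1. The correction used a loess curve per library of log2 CPM on GC content and on transcript length (span 0.3), fitted to genes with a log2 CPM over 2; 8 genes had no GC value and kept their counts. DESeq2 1.42.0 and limma 3.58.1 (voom) served as alternatives, with other scalings and filters, the replicate number as a block, and each mouse left out. The steps were tested on simulated data. Unassigned reads were not analysed here.

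Values in every mouse are given for members at an unadjusted p below 0.05, the PIWI genes and members with a log2 fold change beyond 0.5; of the other pathway genes, the 3 with the smallest p in each direction are named. Values of Tdrd3 and Ddx4, the mention of Ago3, Tcfl5, Ranbp9, Upf1 and Ddx6, and the E-box windows were chosen after values were seen. The members and gene lists were chosen with earlier results of these data known.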

Additional observations from a re-analysis of the deposited data

How the results depend on the processing

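Without a filter on low counts, 2 members were higher at an adjusted p below 0.05 (1.51% of all genes), with the replicate block 1 (Rnf17; 0.759%) and with DESeq2's Wald test 3, compared with 0. The correction moved the members' median log2 fold change to 0.0216 (0.0235 together with the replicate block) and the members without overlap from 7 higher and 0 lower to 3 and 4. The other pathway genes lower at an unadjusted p below 0.05 numbered 5 without the filter, where the share of all genes lower is not given. They numbered 1 with the replicate block, alone (4.67% of all genes lower) or with the correction (3.17%). Asz1 turned to −0.0299 (−0.0329 with the replicate block) and Piwil1 to 0.0812 (0.0846 with it) after the correction.

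When each mouse was left out in turn, uncorrected or corrected, the members past the study's cutoffs ranged from 0 to 1 higher, those at an adjusted p below 0.05 from 0 to 5 higher, and those at an unadjusted p below 0.05 from 2 to 7 higher and 0 to 2 lower. The members without overlap ranged from 7 to 10 higher and 0 to 5 lower, the median from −0.0112 to 0.0328, the other pathway genes from 3 to 7 higher and 1 to 6 lower, and Sel1l from −1.13 to −1.01. Piwil1 ranged from −0.0952 to 0.130, Piwil2 from −0.111 to 0.0371 and Asz1 from −0.0969 to 0.453. Without KOStra8 mouse 2, Tex19.1 and Gpat2 were lower at an unadjusted p below 0.05 and 5 members lay lower without overlap; without HETStra8 mouse 2 these were Gpat2 and 5 members. Without HETStra8 mouse 3, 4 members lay lower without overlap, and without KOStra8 mouse 3 it was 3. The share of all genes without overlap was not computed for runs that leave out a mouse. Groups of 3 and 2 mice fail to overlap more readily by chance than 2 groups of 3. These counts therefore cannot be compared with those of all 6 mice or read as a result about the members. For counts at a p or adjusted p, the share of all genes is given only without HETStra8 mouse 3, uncorrected. At an unadjusted p below 0.05 it was 11.0% higher and 8.81% lower. The ranges at a p or adjusted p are therefore not a result about the members or the other pathway genes either. The cutoffs, the overlap, Sel1l and the other pathway genes were rerun without each mouse only uncorrected. The runs that combine the correction with leaving out a mouse were added after seeing the data. After the correction, an unadjusted p below 0.05 held in 6 of 6 such runs for Tex15, 5 for Rnf17, 2 for Stk31 and 1 for Tdrd12.

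Mice of the 2 groups share replicate numbers. The deviations of same-numbered mice had correlations of −0.060, −0.052 and 0.108 across genes. Those of mice with different numbers ranged from −0.116 to 0.155. With 3 mice per group these values cannot decide whether the numbers pair the mice. With the replicate block 6 members in place of 5 were higher at an unadjusted p below 0.05 (7.58% of all genes), the added one being Ddx4. The cause of these changes was not tested. Low counts limit Piwil4, and 3 mice per group limit all members.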
